A study of Mus musculus with 8 samples.

Results

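The tumour suppressor p53 is a transcription factor that is stabilised when cells are damaged or short of nucleotides, and it then switches on genes that stop the cell cycle, repair DNA, restrain growth or kill the cell. Here 10 such targets were followed in splenic B cells of mice with a B cell deletion of Umps, a gene of pyrimidine synthesis. The members, taken by gene symbol from a list of known p53 targets, were Cdkn1a, Mdm2, Ccng1, Phlda3, Zmat3, Sesn1, Aen, Btg2, Eda2r and Ddb2. All 10 were present among the 49315 features of the deposited table, and 8 passed the expression filter that left 10708 features for testing. Eda2r and Ddb2 did not pass it and are described by their values alone.

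Mdm2, itself a p53 target, encodes the ubiquitin ligase that marks p53 for destruction, which closes a feedback loop. Activity of p53 is set mainly on the protein and not on its mRNA, so the targets are commonly used as its readout. In B cells p53 guards against DNA breaks made while antibody genes are rearranged and mutated, and germinal centre cells, which divide fast, are known to keep it low.

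Poly(A)-enriched RNA was sequenced from splenic total B cells of mice aged 4 months, in 4 UMPS_BKO samples (labelled Fc𝛾RIIB-/-/UMPSBKO) and 4 control samples (labelled Fc𝛾RIIB-/-/CD23Cre+). Every mouse, controls included, lacked the inhibitory Fc receptor FcγRIIB, a background in which a lupus-like disease arises spontaneously. The controls carried the CD23-Cre transgene, whose promoter is active in mature B cells, and the UMPS_BKO label denotes loss in B cells of Umps, the enzyme of the last steps of UMP synthesis. The labels state neither the exons removed, the Cre and sex of the UMPS_BKO mice, nor whether each sample came from its own mouse. The p-values therefore reflect spread among these 8 samples alone, and part of it may be technical.

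The libraries differed in composition within each group. The depth recovered from the spacing of low TPM values was 5.81 to 28.6 (in units of 1000000 reads). Features above 0 numbered 8626 to 13051 in UMPS_BKO and 11034 to 15889 in controls, with the fewest in UMPS_BKO replicate 2. Ribosomal RNA-like features took 37.3% to 60.1% of TPM in UMPS_BKO and 5.39% to 60.0% in controls, and mitochondrially encoded transcripts took 8.42% to 19.2% in UMPS_BKO and 5.33% to 9.12% in controls. All 16 pan-B cell marker genes were above 0 in every library, with means on the log2(TPM + 1) scale of 7.85, 6.12, 6.64 and 4.58 in UMPS_BKO replicates 1 to 4 and of 7.15, 8.01, 8.49 and 8.03 in control replicates 1 to 4. These genes did not move alike: log2 differences of UMPS_BKO minus control ran from −3.22 for Fcmr to 0.30 for Pax5. Ebf1 and Cr2 were also slightly positive, at 0.08 and 0.23, and the other pan-B genes were negative. Their mean is therefore not a measure of B cell number alone. In these bulk samples fewer B cells, less RNA per B cell and changes of single marker genes cannot be told apart. The 10 skeletal muscle markers took 11.7% of TPM in UMPS_BKO replicate 4 and at most 0.277% in any other library, with 9 or 10 of them above 0 in every UMPS_BKO library. In controls all 10 were above 0 in replicates 1 and 4, 2 in replicate 2 and 0 in replicate 3. The 9 hepatocyte markers took 4.35% in control replicate 2, 1.28% in control replicate 3 and at most 0.00154% elsewhere, and 10 erythroid markers took 0.418% to 4.72% in UMPS_BKO and 0.0170% to 0.0559% in controls. Umps itself was at 5.99, 1.05, 13.6 and 2.16 TPM in UMPS_BKO and at 16.1, 35.1, 18.6 and 8.98 TPM in controls, so the groups overlapped at the targeted gene.

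None of the tested p53 targets passed the test between UMPS_BKO and control B cells. In the limma fit of log2(TPM + 1), 0 of the 8 tested members passed an adjusted p of 0.05 in either direction, against 0.0374% of all tested genes called higher and 0.0934% called lower. At an unadjusted p under 0.05 in limma, 1 member was lower and 0 were higher, against 16.4% of all tested genes lower and 0.925% higher. Differences of UMPS_BKO minus control were negative for 6 members and positive for 2, from −1.41 for Sesn1 to 0.95 for Phlda3. Their median was −0.62, beside −0.90 for all tested genes. After scaling the libraries by the median of ratios, which moved the median of all tested genes to −0.15, the members' median was 0.06, with 3 negative and 5 positive differences. After scaling 0 members had groups that did not overlap, against 2.25% of all tested genes lower and 1.66% higher without overlap. With 4 samples a group the intervals were wide: the upper 95% limit in limma on deposited TPM lay between −0.03 for Mdm2 and 3.70 for Phlda3 on the log2 scale.

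**Figure D1:**
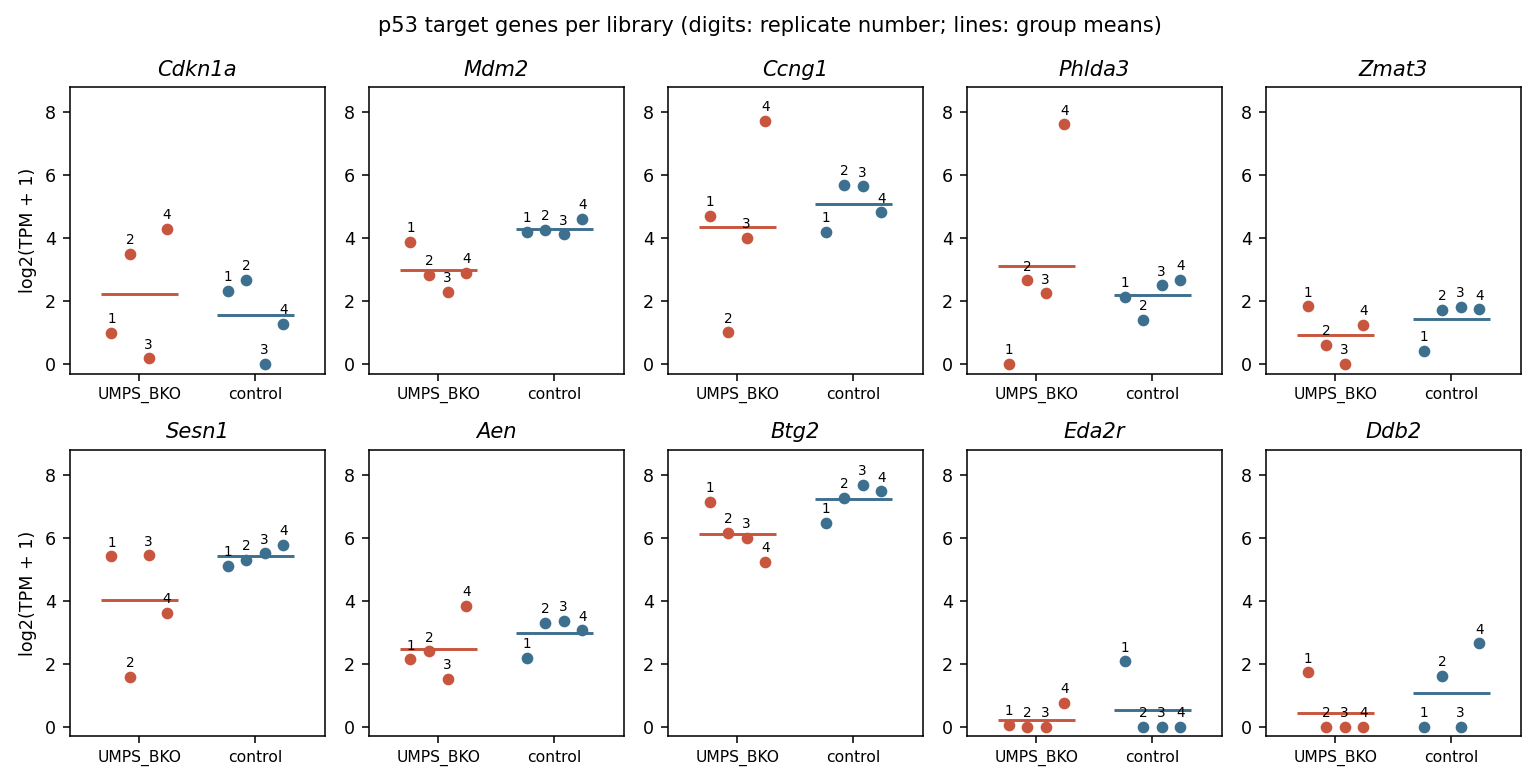
Level of each p53 target gene as log2(TPM + 1) in every library, with UMPS_BKO on the left and control on the right of each panel; points are libraries numbered by replicate and lines are group means (n = 4 each). The groups separate for Mdm2, and UMPS_BKO replicate 4 stands far above the other libraries for Phlda3 and Ccng1.

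**Figure D2:**
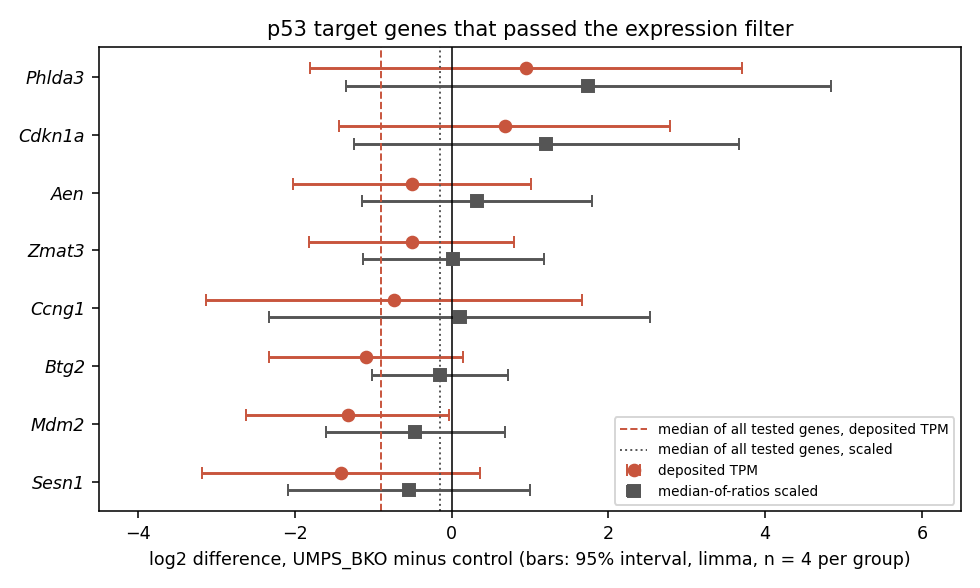
Log2 difference of UMPS_BKO minus control for the 8 tested p53 targets, with 95% intervals from limma (n = 4 per group), from deposited TPM (circles) and after median-of-ratios scaling (squares); vertical lines mark the medians of all tested genes, −0.90 and −0.15. All intervals after scaling include 0.

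Levels per transcript length differed widely among the members in control B cells. The antiproliferative gene Btg2 was the most abundant, at a mean of 156 TPM in controls, followed by Sesn1 at 42.6, Ccng1 at 36.3, Mdm2 at 19.0 and Aen at 7.30. Phlda3 at 3.79, Cdkn1a at 2.71, Zmat3 at 1.89, Ddb2 at 1.83 and Eda2r at 0.806 TPM in controls were low. In this order the control libraries of Btg2 did not overlap those of Sesn1, and those of Mdm2 did not overlap those of Aen. All other neighbours overlapped between control libraries, so their order is not resolved.

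Mdm2, the feedback ligase, was the one member whose groups did not overlap. It was at 13.9, 6.14, 3.91 and 6.45 TPM in UMPS_BKO replicates 1 to 4 and at 17.5, 18.4, 16.4 and 23.6 TPM in control replicates 1 to 4. All 4 UMPS_BKO libraries lay below all 4 controls, as did 4.81% of all tested genes, while 0.504% lay above. The log2 difference was −1.33 ± 0.60 (SE, n = 4 each; limma, adjusted p = 0.283), short of the threshold, and ranked 3186th from the lowest of 10708. As TPM scaled by the median of ratios, Mdm2 stood at 11.7, 12.3, 4.86 and 9.43 in UMPS_BKO and at 22.2, 9.68, 7.63 and 16.4 in controls. The groups then overlapped, and the log2 difference was −0.46 with a 95% interval of −1.61 to 0.68 (limma, adjusted p = 0.793). The pan-B cell mean and the Mdm2 level were both lowest in UMPS_BKO replicates 2 to 4, and with that mean as a covariate the log2 difference of Mdm2 was −0.98 (limma, adjusted p = 0.999). That setting called 0 of all tested genes higher and 1 lower. Since the mean in those replicates lay below every control, its part in the Mdm2 values cannot be told apart from that of group. Mdm2 (ENSMUSG00000020184) lies at 10:117688875-117710758 on the minus strand of GRCm38.

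Cdkn1a encodes p21, the inhibitor of cyclin-dependent kinases through which p53 halts the cell cycle. Its level was 0.979, 10.4, 0.136 and 18.7 TPM in UMPS_BKO replicates 1 to 4 and 4.04, 5.41, 0 and 1.41 TPM in control replicates 1 to 4. UMPS_BKO replicates 2 and 4 were above every control, while replicates 1 and 3 lay within the control range. The log2 difference was 0.68 ± 0.97 (SE, n = 4 per group; limma, adjusted p = 0.669), with a 95% interval of −1.44 to 2.79. It was −0.01 without the muscle-marked UMPS_BKO replicate 4 and −0.27 with array weights (limma, adjusted p = 0.996 and 0.824). The 0 was in control replicate 3, the shallowest library. It allows up to 0.343 TPM at a floor of 3 reads and the exon length used here, which covers counting error only. Cdkn1a (ENSMUSG00000023067) lies at 17:29090976-29100727 on the plus strand.

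The start of Cdkn1a is shown because it holds the palindromic p53 element for which the gene is known. The window runs from 250 bases before to 50 bases after an annotated start (RefSeq, GRCm38.p6, plus strand, chr17:29090729-29091028). Capitals mark the best match to the 20-base p53 consensus site.
Cdkn1a: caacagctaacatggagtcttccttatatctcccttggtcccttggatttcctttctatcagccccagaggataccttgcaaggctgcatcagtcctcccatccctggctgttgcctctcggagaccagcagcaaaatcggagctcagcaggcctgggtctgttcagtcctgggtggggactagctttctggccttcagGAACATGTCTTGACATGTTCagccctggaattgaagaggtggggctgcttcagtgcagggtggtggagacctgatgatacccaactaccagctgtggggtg
The capitals differ from the consensus, taken as a pair of p53 half-sites at most 1 base apart, at 1 position, and begin 51 bases upstream of this start and 2841 bases upstream of a second annotated start. A match this close, searched on both strands since the consensus is its own reverse complement, occurs in 58 of 32851 such windows in the table, or 0.177%. The match describes the sequence and says nothing of binding in these cells.

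Ccng1 encodes cyclin G1, which is known to bring the phosphatase PP2A to Mdm2. Its level was 25.1, 1.01, 15.1 and 212 TPM in UMPS_BKO replicates 1 to 4 and 17.6, 50.8, 49.3 and 27.4 TPM in control replicates 1 to 4. UMPS_BKO thus held both the highest library, replicate 4, and the lowest, replicate 2, where the value rested on 35 recovered reads against 11751 in replicate 4. The log2 difference was −0.73 ± 1.11 (SE, n = 4 per group; limma, adjusted p = 0.684). It was −1.86 without UMPS_BKO replicate 4 and 0.39 without UMPS_BKO replicate 2 (limma, adjusted p = 0.318 and 0.856). Ccng1 (ENSMUSG00000020326) lies at 11:40748552-40755311 on the minus strand.

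The promoter window of Ccng1 (RefSeq, GRCm38.p6, minus strand, chr11:40755237-40755536) is the other of the members' windows with a match of at most 1 mismatch, again in capitals, beginning 195 bases upstream of the start.
Ccng1: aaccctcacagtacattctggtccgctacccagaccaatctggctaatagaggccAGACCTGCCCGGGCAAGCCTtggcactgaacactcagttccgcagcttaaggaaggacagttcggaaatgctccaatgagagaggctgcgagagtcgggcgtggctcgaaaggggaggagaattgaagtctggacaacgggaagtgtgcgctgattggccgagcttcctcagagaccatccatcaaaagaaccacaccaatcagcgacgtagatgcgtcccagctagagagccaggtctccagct
Windows were found for 8 of the 10 members, 11 windows in all, and none for Zmat3 and Ddb2. An exact p53 half-site of 10 bases was present in 6 of these 11 windows (54.5%), which belong to 5 of the 8 genes, and in 8.36% of all windows. The Aen windows overlap and hold the same half-site, which is counted in each. Besides Cdkn1a and Ccng1, the genes with a half-site were Mdm2, Aen and Sesn1, with the half-sites shown here for comparison.
Mdm2: GAACTTGCCT
Aen: GGGCTTGTCC
Sesn1: AAGCTTGTTT
No match in a window of 300 bases says only that these letters are not there, and Mdm2 is known for p53 elements in its first intron, outside this window. Neither Cdkn1a nor Ccng1 passed the test.

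Btg2 encodes an antiproliferative adaptor of the CCR4-NOT deadenylase and is also induced early after B cell activation. It was at 141, 70.7, 63.0 and 36.8 TPM in UMPS_BKO replicates 1 to 4 and at 88.4, 154, 206 and 177 TPM in control replicates 1 to 4. UMPS_BKO replicates 2 to 4 were below every control, and replicate 1 lay inside the control range. Its difference was −1.09 ± 0.57 on the log2 scale (SE, n = 4 each; limma, adjusted p = 0.304), and after scaling it was −0.15 with a 95% interval of −1.02 to 0.72. A set of 12 immediate early genes, such as Fos and Egr1, summed to 227 to 394 TPM in UMPS_BKO and 376 to 675 TPM in controls. These sums are of deposited TPM. After median-of-ratios scaling the genes of the set differed in either direction, as did Fos (0.27) and Egr1 (−0.42). The part of immediate early genes in the Btg2 values was not tested. Btg2 (ENSMUSG00000020423) lies at 1:134075170-134079120 on the minus strand.

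Phlda3 encodes a pleckstrin homology protein known to compete with Akt for membrane lipids and so to lower survival signalling. It was listed at 0 in UMPS_BKO replicate 1 and was at 5.35, 3.77 and 196 TPM in replicates 2 to 4, against 3.44, 1.65, 4.69 and 5.39 TPM in control replicates 1 to 4. The value of replicate 4 rested on 4822 recovered reads. No other library exceeded 5.39 TPM, and replicate 4 is the library with 11.7% of TPM from muscle markers. Its difference of 0.95 ± 1.27 on the log2 scale (SE, n = 4 each; limma, adjusted p = 0.644) turned to −0.54 without that library (limma, adjusted p = 0.663). The 0 in UMPS_BKO replicate 1 allows up to 0.102 TPM at a floor of 3 reads, which covers counting error only, so that library lay below every control. Phlda3 (ENSMUSG00000041801) lies at 1:135766119-135769136 on the plus strand.

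The same UMPS_BKO library stood highest for 4 of the 10 members, Cdkn1a, Ccng1, Phlda3 and Aen. Control replicate 4 was highest for 3 of the 10, and UMPS_BKO replicate 1, control replicate 1 and control replicate 3 for 1 each. The share of all tested genes highest in each library was not computed, so these counts are not read as a trait of the members. Aen, a nuclease that promotes apoptotic DNA breakdown, was at 3.42, 4.28, 1.87 and 13.4 TPM in UMPS_BKO and at 3.58, 8.94, 9.30 and 7.37 TPM in controls. Replicate 4 was above all controls, and replicate 3 and replicate 1 were below them, with a log2 difference of −0.51 ± 0.70 (SE, n = 4 per group; limma, adjusted p = 0.657). The other target Tigar, a regulator of glycolysis, was at 55.4 TPM in replicate 4 and at 0 to 3.41 TPM in UMPS_BKO replicates 1 to 3, against 3.04 to 6.66 TPM in controls. By contrast Mdm2 in replicate 4, at 6.45 TPM, lay among the other UMPS_BKO values. The part of muscle transcripts in the high values was not tested. Among the genes whose profile over the 8 libraries was most like that of Phlda3 was Smyd1, a methyltransferase of striated muscle, at a mean absolute difference of 0.464 log2 units between centred profiles. Phlda3 exceeded 5.39 TPM only in UMPS_BKO replicate 4, so the likeness may rest largely on that library. A muscle source of Phlda3 was not tested.

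**Figure D3:**
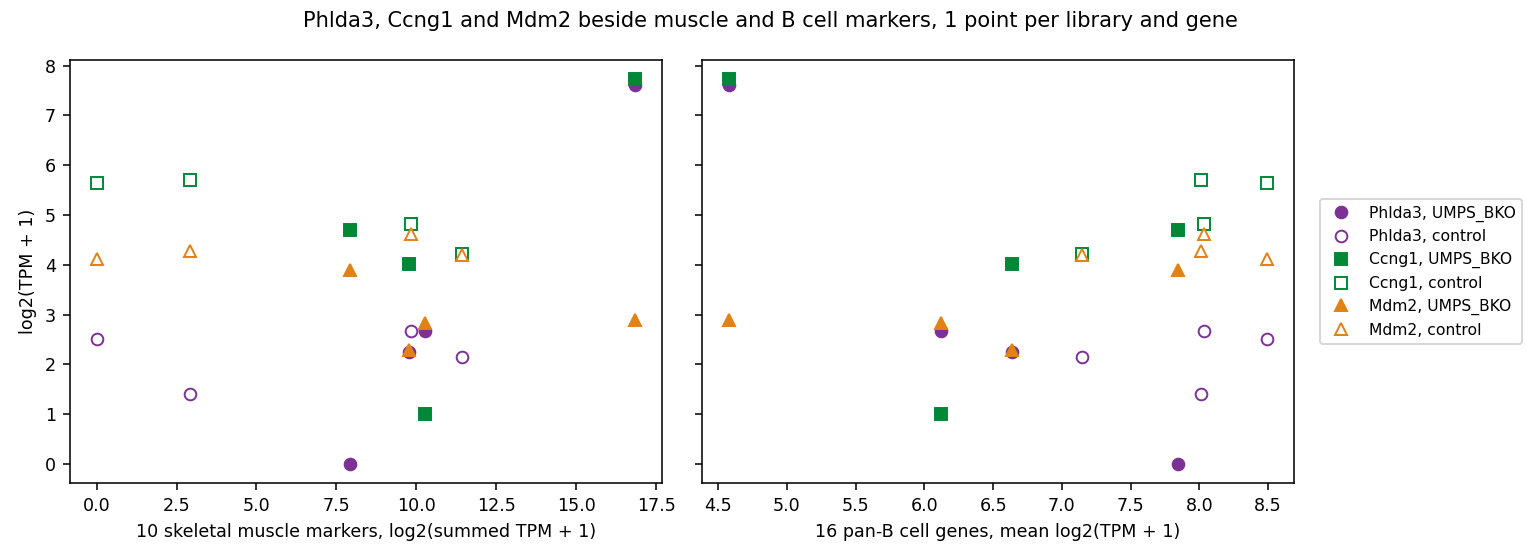
Log2(TPM + 1) of Phlda3, Ccng1 and Mdm2 in each library against the summed level of 10 skeletal muscle markers (left) and the mean of 16 pan-B cell genes (right); filled symbols are UMPS_BKO and open symbols control, 4 libraries each. UMPS_BKO replicate 4, with the most muscle signal and the lowest pan-B cell mean, has the highest Phlda3 and Ccng1 but not the highest Mdm2.

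Sesn1 encodes sestrin 1, which limits the growth kinase mTORC1. It was at 41.8, 1.99, 42.6 and 11.4 TPM in UMPS_BKO replicates 1 to 4 and at 33.9, 38.4, 44.7 and 53.6 TPM in control replicates 1 to 4. Replicates 1 and 3 of UMPS_BKO lay inside the control range and replicates 2 and 4 below it. A log2 difference of −1.41 ± 0.82 (SE, n = 4 each), the most negative of the tested members, missed the threshold (limma, adjusted p = 0.335). It was −0.60 without UMPS_BKO replicate 2 (limma, adjusted p = 0.676).

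Zmat3, Eda2r and Ddb2 were the least abundant members. Zmat3, an RNA-binding zinc finger protein, was at 2.58, 0.533, 0 and 1.36 TPM in UMPS_BKO and at 0.344, 2.33, 2.56 and 2.34 TPM in controls. Its groups overlapped and the log2 difference was −0.51 ± 0.60 (SE, n = 4 per group; limma, adjusted p = 0.601). Eda2r, a receptor of the tumour necrosis factor family, was at 0.0451, 0, 0 and 0.698 TPM in UMPS_BKO and at 3.22, 0, 0 and 0 TPM in controls. The Eda2r value of control replicate 1 rested on 241 reads. That library had the highest muscle marker share among controls, 0.277%, while UMPS_BKO replicate 4, at 11.7%, had 0.698 TPM of Eda2r. The part of muscle transcripts in the Eda2r values was not tested. Ddb2, a sensor of ultraviolet damage that p53 is known to induce in human cells but not in mouse cells, was at 2.31, 0, 0 and 0 TPM in UMPS_BKO and at 0, 2.07, 0 and 5.26 TPM in controls. A 0 of Ddb2 allows up to 0.445 TPM in control replicate 3 and up to 0.111 TPM in UMPS_BKO replicate 2, the widest floor in each group. These floors of 3 reads cover counting error only. UMPS_BKO replicate 2 had the fewest features above 0, 8626, and listed the housekeeping gene Gusb at 0, so a 0 there may stand for a higher level.

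None of the other known p53 targets passed the test either. Of 37 such genes, 32 were tested and 0 passed over all genes in limma. At an unadjusted p under 0.05, 6 were lower and 0 higher, beside 16.4% and 0.925% of all tested genes. Their log2 differences had a median of −1.20, and −0.39 after median-of-ratios scaling, beside −0.90 and −0.15 for all tested genes. Xpc, a damage sensor of nucleotide excision repair, was the one of the 32 whose groups did not overlap, at 5.23, 3.61, 0.315 and 2.91 TPM in UMPS_BKO and 5.39, 7.25, 13.5 and 5.56 TPM in controls. Of all tested genes 4.81% were likewise lower without overlap. Xpc differed by −1.27 ± 0.70 on the log2 scale (SE, n = 4 per group; limma, adjusted p = 0.322). After median-of-ratios scaling its groups overlapped and the difference was −0.51 (limma, adjusted p = 0.82).

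Of the targets that act in cell death, Pmaip1, Bbc3, Bax and Fas did not pass the test. Pmaip1, which encodes the BH3-only protein Noxa, was at 7.68 TPM in UMPS_BKO replicate 1 and listed at 0 in the other 3, against 5.09, 10.6, 7.98 and 8.30 TPM in controls. Its log2 difference was −2.35 ± 0.79 (SE, n = 4 per group; limma, adjusted p = 0.283), and −3.13 without UMPS_BKO replicate 1, where it passed (limma, adjusted p = 0.0373), as did 2.16% of all tested genes in the lower direction. Bbc3, which encodes Puma, was at 9.25, 0, 3.05 and 1.82 TPM in UMPS_BKO and 7.53, 18.9, 13.9 and 6.78 TPM in controls. Bax, the pore-forming executor, was at 65.5, 3.61, 57.9 and 14.2 TPM in UMPS_BKO and 33.3, 130, 105 and 81.5 TPM in controls. Fas, the death receptor, was at 3.80, 0, 4.22 and 3.41 TPM in UMPS_BKO and 0, 31.6, 24.6 and 9.33 TPM in controls. Bbc3, Bax and Fas overlapped between groups and differed by −1.85 ± 0.79, −1.79 ± 0.85 and −1.57 ± 1.06 (SE, n = 4 per group; limma, adjusted p = 0.283, 0.288 and 0.381). After median-of-ratios scaling the differences were −1.93 for Pmaip1, −1.25 for Bbc3, −0.89 for Bax and −0.85 for Fas. Fas is also a germinal centre B cell marker, and 7 other germinal centre markers summed to 7.38 to 29.7 TPM in UMPS_BKO and 31.3 to 195 TPM in controls, with 6 of the 7 listed at 0 in each of UMPS_BKO replicates 2, 3 and 4. Bcl6, the marker above 0 in those libraries, differed by −0.72 on the log2 scale and by 0.19 after median-of-ratios scaling. Whether the number of germinal centre cells differed, and its part in the Fas values, was not tested. The death receptor gene Tnfrsf10b stayed between 0 and 2.33 TPM in UMPS_BKO and between 0 and 4.16 TPM in controls.

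Targets that act in arrest, repair and stress, other than Xpc, overlapped between the groups where tested. Gadd45a, a growth arrest and damage gene, was at 13.2 to 28.6 TPM in UMPS_BKO and 14.2 to 33.8 TPM in controls. The stress cytokine Gdf15 was listed at 0 in all 4 UMPS_BKO libraries and was at 2.13, 2.04, 3.94 and 0 TPM in controls, too low to be tested. Rrm2b, the p53-induced ribonucleotide reductase subunit that supplies deoxynucleotides, was at 5.51, 1.34, 5.42 and 3.41 TPM in UMPS_BKO and 3.93, 10.3, 19.2 and 10.2 TPM in controls, a log2 difference of −1.22 ± 0.69 (SE, n = 4 per group; limma, adjusted p = 0.332). Trp53inp1, a stress-induced partner of p53, was at 39.3, 2.32, 17.8 and 4.55 TPM in UMPS_BKO and 20.9, 57.8, 57.0 and 43.1 TPM in controls (−1.97 ± 0.80; limma, adjusted p = 0.283). Sesn2 ranged over 0 to 4.89 TPM in UMPS_BKO and 1.17 to 5.37 TPM in controls, Plk2 over 1.02 to 8.27 and 5.36 to 8.33 TPM, Plk3 over 0 to 11.1 and 0 to 11.6 TPM, and the repair polymerase Polk over 0 to 6.06 and 0.937 to 2.68 TPM, in the same order of groups. The 3 further targets with the smallest p in limma were Ephx1, Dcxr and Sertad1, with log2 differences of −3.79 ± 1.09, −3.06 ± 1.09 and −2.21 ± 1.00 (SE, n = 4 per group; adjusted p = 0.277, 0.283 and 0.284). After median-of-ratios scaling Dcxr differed by −2.45 and Sertad1 by −1.55. Dcxr was at 20.3, 0, 0 and 19.5 TPM in UMPS_BKO and 18.5, 73.8, 63.5 and 21.3 TPM in controls. The highest Dcxr values were in the hepatocyte-marked control replicates 2 and 3, and the part of liver transcripts in them was not tested. Ephx1 encodes an epoxide hydrolase and stood at 56.6, 6.26, 7.45 and 0 TPM in UMPS_BKO and 25.0, 231, 194 and 109 TPM in controls, with replicate 1 of UMPS_BKO above control replicate 1. Without UMPS_BKO replicate 1 its log2 difference was −4.76 and passed (limma, adjusted p = 0.0389), in a setting where 2.16% of all tested genes were called lower. Its highest values, 231 and 194 TPM, were in the hepatocyte-marked control replicates 2 and 3, and the part of liver transcripts was not tested. The difference was −2.44 with control replicate 2 and UMPS_BKO replicate 4 left out and −0.82 with the pan-B covariate (limma, adjusted p = 0.615 and 0.999). Control replicate 3 stayed in where libraries were left out, and UMPS_BKO replicate 4, at 0 TPM, did not, so liver transcripts are not isolated there. The pan-B cell mean, as for Mdm2, cannot be told apart from group. After median-of-ratios scaling the Ephx1 difference was −3.01 (limma, adjusted p = 0.59).

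**Figure D4:**
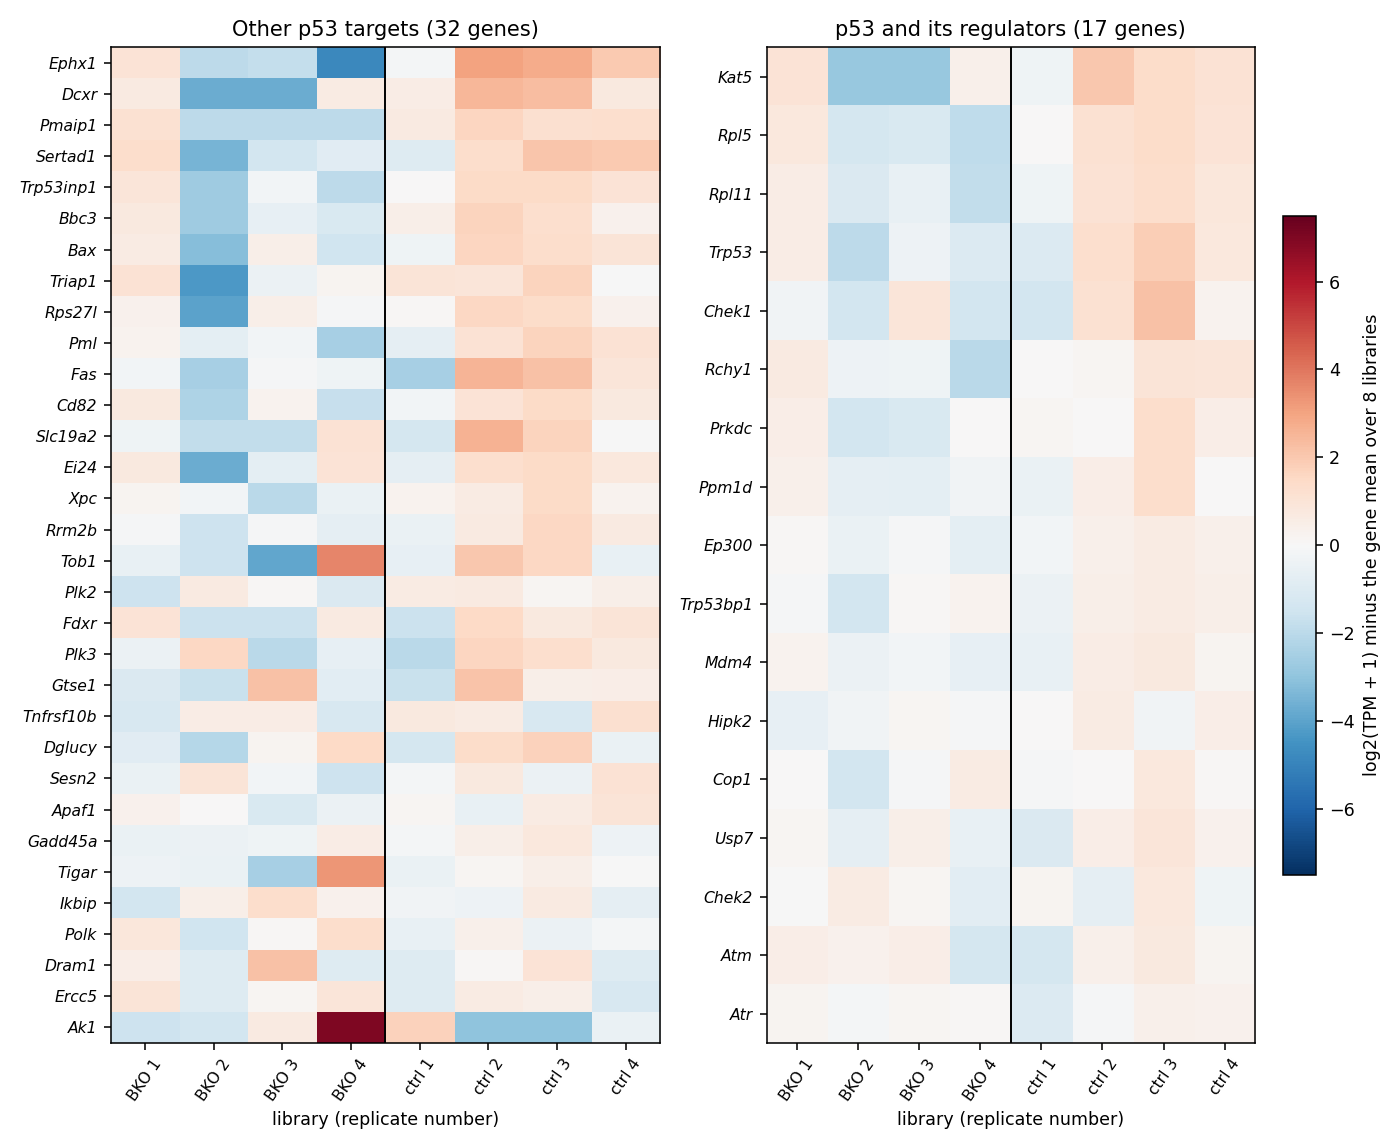
Log2(TPM + 1) minus each gene's mean over the 8 libraries, for 32 tested further p53 targets (left) and 17 tested regulators of p53 including Trp53 (right), ordered by their difference between groups; UMPS_BKO (BKO) columns stand left of the black line and control (ctrl) columns right of it. Tigar is highest in UMPS_BKO replicate 4, as are Ak1 and Tob1, named here after their values were seen.

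The transcript of p53 itself was not called different either. Trp53 was at 43.0, 6.64, 22.5 and 14.0 TPM in UMPS_BKO replicates 1 to 4 and at 13.7, 71.0, 108 and 51.2 TPM in control replicates 1 to 4. Control replicate 1 lay below 3 of the 4 UMPS_BKO libraries, and the log2 difference was −1.42 ± 0.75 (SE, n = 4 per group; limma, adjusted p = 0.311) and −0.50 after scaling. Of 21 listed regulators 17 were tested and 0 passed in limma. At an unadjusted p under 0.05, 2 were lower and 0 higher, beside 16.4% and 0.925% of all tested genes. The regulators' median log2 difference was −0.62, or 0.21 after scaling.

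Among the regulators not already listed by name, those with the smallest p were the ribosomal protein genes Rpl5 and Rpl11, whose free proteins bind Mdm2 when ribosome assembly fails, and the acetyltransferase gene Kat5. Rpl5 was at 599, 134, 154 and 89.1 TPM in UMPS_BKO and 354, 754, 897 and 690 TPM in controls. The log2 differences were −1.80 ± 0.65 for Rpl5, −1.46 ± 0.64 for Rpl11 and −2.10 ± 0.98 for Kat5 (SE, n = 4 per group; limma, adjusted p = 0.283, 0.283 and 0.288). After scaling they were −0.85 for Rpl5, −0.51 for Rpl11 and −1.50 for Kat5. Without UMPS_BKO replicate 1 Rpl5 differed by −2.37 and passed (limma, adjusted p = 0.0444), with 2.16% of all tested genes called lower there. With array weights, where 17.8% of all tested genes were called lower, Rpl5, Rpl11, Kat5, Ephx1, Dcxr, Sertad1, Pmaip1 and Trp53inp1 passed as lower (limma, adjusted p = 0.0244 to 0.0483). Mdm4, the inhibitory partner of Mdm2, was at 6.88, 3.85, 4.66 and 3.29 TPM in UMPS_BKO and 3.44, 8.78, 9.65 and 6.58 TPM in controls. As TPM scaled by the median of ratios, Mdm4 stood at 5.82, 7.71, 5.79 and 4.81 in UMPS_BKO and 4.38, 4.62, 4.49 and 4.57 in controls. There all UMPS_BKO libraries lay above all controls, as for 3 of the 17 regulators (Mdm4, Usp7 and Atr) and 1.66% of all tested genes. Usp7 and Atr are named because of those values, and the Mdm4 difference of 0.34 did not pass (limma, adjusted p = 0.839). The damage kinases and phosphatase overlapped between groups, with Atm at 0.410 to 3.95 TPM in UMPS_BKO and 0.404 to 4.67 TPM in controls, Chek2 at 2.61 to 8.71 and 2.97 to 9.87 TPM, and Ppm1d at 4.75 to 11.3 and 5.66 to 22.4 TPM.

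The tested genes closest to Mdm2 over the 8 libraries were Exosc5 and N4bp2l1, at mean absolute differences of 0.135 and 0.163 log2 units between centred profiles, and those closest to Btg2 were Cox7a2l and Xrn2, at 0.0914 and 0.109. For Cdkn1a the closest genes, Slc25a26 and Jazf1, were no nearer than 0.544 and 0.550, and for Ccng1, Anapc5 and Ndufv1 were at 0.373 and 0.377. Sesn1 was closest to Mnt and Agps at 0.217 and 0.225, Aen to Golga2 and Uqcrfs1 at 0.188 and 0.191, and Zmat3 to Aak1 and Amz1 at 0.151 and 0.171. In none of these cases was another of the 10 p53 targets among the 2 closest genes.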

How the data were processed

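The authors deposited one table of TPM (length-scaled transcript abundance), with 49315 features and 8 library columns that each sum to 1000000. Named in the submitters' processing notes are STAR 2.5.2b, Subread 1.5.2 with featureCounts, bcl2fastq 2.20 and build GRCm38. Annotation release, strand setting and TPM formula: not given in the sources used here. Columns were matched to samples by library name. Gene positions and exon lengths came from GENCODE M21, promoters from RefSeq (GRCm38.p6).

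Genes with TPM of at least 1 in at least 4 of 8 libraries (10708) entered a limma fit (version 3.58.1, R 4.3.3) of log2(TPM + 1), with moderated variances following a trend (two-sided, Benjamini-Hochberg over all tested genes). Fold changes are on that scale and understate those of low genes. In simulated data with 4 samples a group, the fit recovered 10% of genes changed by 2 on the log2 scale. It recovered 65.2% of those changed by 4 and 89.2% of those changed by 6. A gene that did not pass may therefore still differ.

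Low TPM values times exon length gave whole multiples of a step, and that multiple is the recovered read number; 90.3% to 92.3% of values under 30 reads came out whole within 0.05. Reads of Cdkn1a and Mdm2 did not, so the exon length used here may not be the authors', and none are quoted. TPM is not a count, so no count model was run.

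The named genes were the 10 members, Umps, 20 other p53 genes fixed in a list, the 3 with the smallest p of each further list, and the 2 tested genes nearest each member's profile. One gene that this rule names is not reported here. Members and lists were chosen with earlier results of these data known. Alternatives are given in the closing section. Python 3.11.15, numpy 2.4.6, pandas 2.3.3 and matplotlib 3.10.9 were also used.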

Additional observations from a re-analysis of the deposited data

Results flagged for a closer look

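A library was marked where, among the 4 of its group, its gap to the nearest other library, as a share of the group's range in TPM, exceeded Dixon's 95% critical value. Chance marks about 1 in 20 where values are normally distributed, which TPM with many values of 0 need not be. A group at 0 throughout, as Gdf15 in UMPS_BKO, could not be marked. Of 72 gene and group pairs looked at, 12 were marked, and no excess over chance is read from this. Of these, 6 fell on the muscle-marked UMPS_BKO replicate 4, which was highest for Phlda3 (196 TPM, next 5.35), Ccng1 (212, next 25.1), Tigar (55.4, next 3.41), Gadd45a (28.6, next 15.3) and Eda2r (0.698, next 0.0451), and lowest for Atm (0.410, next 3.37). UMPS_BKO replicate 1, with the highest pan-B cell mean of its group, stood above the others for Rpl5 (599 TPM, next 154), Ephx1 (56.6, next 7.45), Pmaip1 (7.68, next 0) and Ddb2 (2.31, next 0). Control replicate 1 was highest for Eda2r (3.22 TPM, next 0) and lowest for Zmat3 (0.344, next 2.33). The part of muscle transcripts or of B cell content in these values was not tested.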

How the results depend on the processing

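None of the 8 tested members passed in limma in any of 22 alternatives, of which 1 leaves a single UMPS_BKO library (lowest adjusted p 0.0505, Mdm2 with array weights), and the counts of members higher and lower were 0 in each, also with each library left out and in the replicate block. With the block the other counts were 0 too and no call of a listed p53 gene changed. Deviations of same-numbered samples from their group means correlated at −0.35, −0.19, −0.03 and −0.09. The labels do not say whether the numbers pair the samples. Library composition differed widely, so these values cannot settle it. Of 175 member differences under alternatives 157 kept their sign. The members' median turned to 0.06 with the median of ratios and 0.25 with quantile normalization, and was −0.94 to −0.41 with 1 library left out. The count of other pathway genes lower was 8 with array weights (Ephx1, Trp53inp1, Rpl11, Rpl5, Sertad1, Dcxr, Pmaip1 and Kat5), where 17.8% of all tested genes were called lower, and 0 to 3 with 1 library left out. Signs changed with the median of ratios for Ccng1 (0.10), Zmat3 (0.02), Aen (0.33) and Mdm4 (0.34), with quantile normalization for Ccng1 (0.16), Zmat3 (0.52), Aen (0.35) and Mdm4 (0.39), and after removal of ribosomal RNA-like and mitochondrial transcripts for Aen (0.14) and Mdm4 (0.20). They changed for Cdkn1a with array weights (−0.27), with the pan-B cell covariate for Cdkn1a (−1.30), Phlda3 (−2.22) and Mdm4 (0.12), and with control replicate 2 and UMPS_BKO replicate 4 left out together for Phlda3 (−0.80). Without UMPS_BKO replicates 2, 3 and 4 together, which leaves 1 UMPS_BKO library assumed to vary like the controls, limma called 0 of all tested genes, so that setting says nothing about stability; signs there changed for Cdkn1a (−0.59), Phlda3 (−2.18), Zmat3 (0.41), Mdm4 (0.03) and Sertad1 (0.20). In an alternative added after the data were seen, median-of-ratios scaling without UMPS_BKO replicate 4, Btg2 was 0.11 and Mdm4 0.42. With 1 library left out, Ccng1 ranged from −1.86 to 0.39, Cdkn1a from −0.01 to 1.36 and Phlda3 from −0.54 to 1.99. The cause was not tested. Leaving out UMPS_BKO replicate 1 brought Pmaip1, Ephx1 and Rpl5 past the threshold. Over all tested genes limma called 4 higher and 10 lower, 84 and 1906 with array weights, 17 and 231 without UMPS_BKO replicate 1, 5 and 23 with the block, 0 and 1 with the pan-B cell covariate.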
